A study of Mus musculus with 22 samples.

Results

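The epidermal growth factor (EGF) receptor and its ligands were followed in mouse lung epithelial cells exposed to carbon nanotubes. The set comprised 10 genes: the receptors Egfr, Erbb2 and Erbb3, the EGF receptor ligands Areg, Ereg, Hbegf, Tgfa and Btc, the neuregulin Nrg1, and the feedback inhibitor Errfi1. They were taken by name, as the probes whose transcript accession maps to these symbols, which gave 12 of the 55681 probes on the array and 10 of its 20018 named genes. FE1 cells, a line that arose spontaneously from the lung of a MutaMouse (a mouse that carries a lacZ reporter transgene), were given the multi-walled carbon nanotube Mitsui7 for 24 h. Control cells received the vehicle alone (0 µg/ml) and were measured on 5 arrays. The exposed groups received 12.5 µg/ml (called the low dose, n = 6), 25 µg/ml (the medium dose, n = 5) or 100 µg/ml (the high dose, n = 6). The medium of every group held 2% serum, 1% antibiotics and murine EGF, listed in the labels at 100 ng/µl, so the receptor was supplied with a ligand in control and exposed cells alike. The submitters describe the samples as biological replicates of a single cell line. The study's methods name 3 separate exposure experiments and the labels 3 exposures per dose on an experiment day, without saying which arrays share one. Arrays of a group may therefore share an experiment, and the p-values, which treat each array as a replicate, measure only the spread between these samples and may be too small.

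EGF and its relatives are made as membrane-bound precursors and are released by proteases at the cell surface. The ligands Areg, Ereg, Hbegf, Tgfa and Btc bind Egfr, which then pairs with itself or with Erbb2 or Erbb3, while Nrg1 binds Erbb3 and Erbb4. The paired receptors signal through RAS, RAF and the kinase ERK to transcription factors, and Errfi1 (also called Mig6) binds the receptor's kinase domain and restrains it. In the lung these signals take part in epithelial growth and repair.

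Each sample was labelled with the red dye Cy5 and hybridised against a common pool of mouse reference RNA labelled with Cy3, with no dye swap. A level below is the log2 ratio of sample over pool for 1 probe, which cannot be set against the level of another probe. A change is the difference in log2 ratio between groups, estimated by limma with the slide as a term. A gene was called changed at an adjusted p of at most 0.05 over all probes, a change of at least 1.5-fold, and a signal above the negative control spots (detected) on at least 4 arrays of either group. Between 23688 and 39139 probes were detected per array, and the number of arrays limits the precision. The 22 arrays lay on 5 slides, of which 4 held every group and the fifth held only 2 exposed arrays.

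The cell type label was checked against marker genes. Krt7, Krt8, Krt18 and Krt19 were detected on at least 4 of the 5 control arrays, whereas Epcam was detected on 1 and Cdh1 on 0, and all 9 mesenchymal markers were detected. Of the 7 alveolar type II markers, Abca3 and Lamp3 were detected on 5 of 5 control arrays, Sftpc and Sftpd on 3, and Sftpa1, Sftpb and Nkx2-1 on 0. Lamp3 was called higher at the medium and high doses (0.75 and 0.90). The lowest change of a detected type II marker was -0.57, -0.37 and -0.62 at the 3 doses, and 0 were called lower. Over the 4 that passed the detection filter the mean lay between -0.33 and 0.09 on the control arrays. It lay between -0.14 and 0.26 at the high dose, which overlaps. Of the 5 alveolar type I markers, Pdpn, Hopx and Cav1 were detected on 5 of 5 control arrays and Aqp5 and Ager on 3. Of the 4 immune markers on the array 2, and of the 3 endothelial markers 2, were detected on at least 4 of the 5 control arrays. Of these 2 lists 0 genes were called at any dose. The mean log2 ratio over the 9 mesenchymal markers lay between -0.17 and 0.06 on the control arrays, between -1.23 and -0.35 at the low dose, between -1.34 and -0.93 at the medium dose and between -1.50 and -0.93 at the high dose, and 5, 6 and 6 of the 9 were called lower. Over the 4 alveolar type I markers that passed the detection filter (all but Ager) the mean lay between 0.03 and 0.23 on the control arrays, between -0.40 and -0.01 at the low dose, between -0.45 and 0.01 at the medium dose and between -0.57 and -0.34 at the high dose, and Hopx was called lower at every dose (-1.32, -1.59 and -2.08). The mesenchymal and alveolar type I lists moved with exposure in the same samples as the results below, and their part in those results was not tested. Over the 4 detected epithelial markers the mean ranged from -4.33 to -3.38 on the control arrays and from -4.33 to -3.90 at the high dose, which overlap, and Krt7 was called lower at the medium and high doses. In a bulk sample, fewer cells of a type and less RNA per cell cannot be told apart.

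In control cells 6 of the 10 genes, Egfr, Erbb2, Ereg, Hbegf, Nrg1 and Errfi1, were detected on at least 4 of the 5 arrays. Read from the brightest probe of each gene, Errfi1, Ereg and Hbegf rose at every dose, by 1.69-fold to 2.66-fold, and no gene was called lower. A dimmer probe of Egfr, described below, was called lower at the high dose (-0.63). Of the 10 genes 7, 6 and 8 passed the detection filter at the low, medium and high doses, and 3 were called at each, all higher. Among all detected genes, 5.31% of 13553 were called at the low dose (2.3% higher), 8.96% of 13315 at the medium dose (4.27% higher) and 12% of 13977 at the high dose (5.52% higher). The median change of the detected members was 0.39, 0.60 and 0.49 at the 3 doses, against 0.01, 0.00 and 0.01 over all detected genes. Tgfa at the low and high doses and Areg at the high dose passed the filter through the exposed group alone. Tgfa bears on the low dose median, and Tgfa and Areg both bear on the high dose median. The 3 medians are taken over different genes and cannot be set against each other. The genes were chosen with earlier results of these data known, so these figures describe the set and test nothing. All 3 called genes were called at all 3 doses, which was so for 4.54% of 12971 genes detected in each comparison. All exposed arrays lay above every control array for 2 members (Errfi1 and Hbegf) at the low dose and for 3 (with Ereg) at the medium and high doses, against 2.28%, 5.06% and 5.66% of detected genes.

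**Figure D1:**
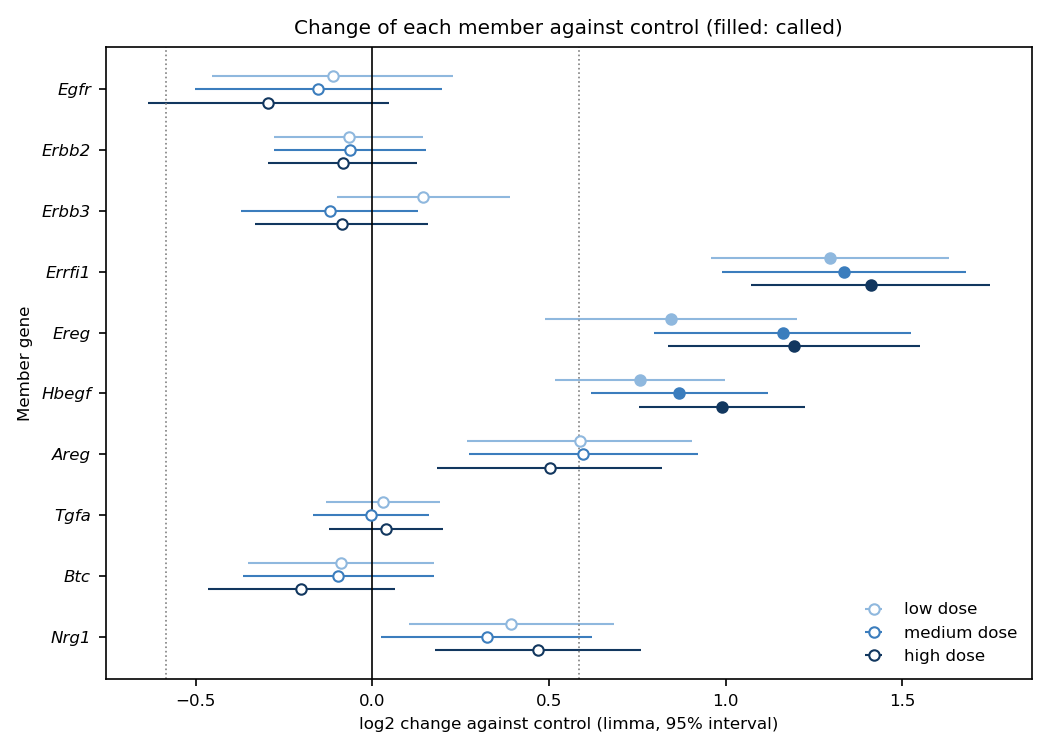
Change in log2 ratio against control (x axis) of the 10 genes at each dose, by the brightest probe of each gene, with lines for the 95% confidence interval of the limma fit, filled points for calls and dotted lines at 1.5-fold. Errfi1, Ereg and Hbegf sit to the right of 0 at every dose, between 0.76 and 1.41, while the intervals of Egfr and Erbb2 span 0.

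Errfi1, the inhibitor that acts on the receptor itself, changed most. Its log2 ratio was -2.40, -2.99, -3.21, -3.25 and -3.35 on the control arrays. At the low dose its lowest, median and highest values were -2.14, -1.83 and -1.34. The medium dose arrays gave -1.28, -1.86, -1.74, -1.78 and -1.85, and the high dose arrays ran from -2.10 through a median of -1.74 to -1.24. Every exposed array lay above every control array, and the arrays of the 3 doses covered nearly the same range. The change was 1.30 at the low dose (SE 0.16, 2.45-fold, limma adjusted p = 6.05e-05), 1.34 at the medium dose (SE 0.17, 2.52-fold, limma adjusted p = 2.87e-05) and 1.41 at the high dose (SE 0.16, 2.66-fold, limma adjusted p = 6.08e-06). Within each of the 4 slides that held a control, the difference was positive, ranging from 1.02 to 1.62 (low), 1.12 to 1.49 (medium) and 1.10 to 1.80 (high). Centring each array on its median without a loess curve left the low dose change at 1.15, with a limma adjusted p of 0.148.

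The promoter of Errfi1 is shown because it and that of Areg hold the same pair of motifs. The RefSeq table used here (build GRCm38.p6) holds 7 promoters of 6 of the 10 genes, and Errfi1 has 2 of them. It holds none for Ereg, Hbegf, Nrg1 and Erbb3, which were therefore not searched. The window is the 250 bases before the annotated start, 5′ to 3′ on the strand of the gene. The second Errfi1 promoter lies on the forward strand at chr4:150854820-150855069, and capitals mark the cyclic AMP response element (CRE) TGACGTCA at -51 to -44 and the TATA motif TATAAA at -28 to -23.
Errfi1, second promoter: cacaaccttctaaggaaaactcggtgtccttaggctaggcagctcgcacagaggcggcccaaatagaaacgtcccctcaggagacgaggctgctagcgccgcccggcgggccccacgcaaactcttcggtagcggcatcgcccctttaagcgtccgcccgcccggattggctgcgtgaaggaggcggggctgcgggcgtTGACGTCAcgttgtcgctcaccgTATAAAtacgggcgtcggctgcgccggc
The Areg promoter lies on the forward strand at chr5:91139349-91139598, and its capitals mark TGACGTCA at -61 to -54 and TATAAA at -31 to -26.
Areg: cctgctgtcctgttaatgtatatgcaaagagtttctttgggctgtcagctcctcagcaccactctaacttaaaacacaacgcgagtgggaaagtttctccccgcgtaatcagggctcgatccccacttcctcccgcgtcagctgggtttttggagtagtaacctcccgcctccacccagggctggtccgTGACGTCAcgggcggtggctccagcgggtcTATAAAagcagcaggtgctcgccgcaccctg
Of 32851 mouse promoters searched on both strands in the same window, 508 (1.55%) held TGACGTCA, 12.4% held TATAAA and 39 (0.119%) held both. The other motifs searched were AP-1 (TGANTCA, in 6.75% of promoters), the CRE half-site CGTCA, which lies within the full CRE (17.8%), EGR (GCGTGGGCG, 0.536%), the xenobiotic element GCGTG (28.2%), NF-kB (GGGA and CC with 4 bases between, 17.6%) and the antioxidant element TGACNNNGC (10.2%). In the windows of Egfr and of the first Errfi1 promoter none of these letters was found, and none of the 7 windows searched held the AP-1, EGR or antioxidant letters. Erbb2 held the CRE half-site and the NF-kB letters, Tgfa held GCGTG, and Btc held the CRE half-site and GCGTG. The second Errfi1 promoter also held GCGTG, at -137 to -133 on the reverse strand and at -78 to -74. Areg held a further CRE half-site, outside its full CRE, at -115 to -111. The matches describe the letters of these windows.

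Among the EGF receptor ligands, Ereg and Hbegf rose and the other ligands were close to the background of the array. Ereg encodes epiregulin, a ligand of Egfr and Erbb4. Its log2 ratio was -1.06, -1.55, -1.55, -1.35 and -1.33 on the control arrays, and its lowest, median and highest values at the low dose were -1.08, -0.47 and -0.04. At the medium dose it was -0.13, -0.66, -0.14, 0.07 and -0.17, and at the high dose it ran from -0.68 through a median of -0.20 to 0.20. All medium and high dose arrays lay above every control array, while 1 of the 6 low dose arrays fell just under the highest control. The change was 0.85 at the low dose (SE 0.17, 1.80-fold, limma adjusted p = 0.00594), 1.16 at the medium dose (SE 0.17, 2.24-fold, limma adjusted p = 0.00024) and 1.19 at the high dose (SE 0.17, 2.29-fold, limma adjusted p = 7.83e-05). Within slides the difference was positive on 4 of 4 slides at each dose, from 0.46 to 1.51 at the low, 0.91 to 1.43 at the medium and 0.88 to 1.75 at the high dose. The low dose call of Ereg was lost without slide 3 (limma adjusted p = 0.0795), with only the 2 groups compared (limma adjusted p = 0.0712) and with median centring (0.71, limma adjusted p = 0.397), which also ended the medium dose call (1.20, limma adjusted p = 0.0512).

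Hbegf encodes heparin-binding EGF-like growth factor, which binds Egfr and Erbb4. The scanner marked its spot as unreliable on 5 of the 22 arrays (control 4, low dose 3 and 4, and medium dose 3 and 4, all on slides 2 and 3), and the fit treated these as missing. On the measured arrays the log2 ratio was -1.13, -0.87, -1.03 and -0.91 in control cells, 0.02, -0.39, -0.10 and -0.30 at the low dose, and -0.20, -0.19 and -0.01 at the medium dose. The 6 high dose arrays ran from -0.20 through a median of 0.06 to 0.27. Every measured exposed array lay above every measured control array. The change was 0.76 at the low dose (SE 0.11, 1.69-fold, limma adjusted p = 0.00109), 0.87 at the medium dose (SE 0.12, 1.83-fold, limma adjusted p = 0.000281) and 0.99 at the high dose (SE 0.11, 1.99-fold, limma adjusted p = 2.70e-05). With the marked spots kept, the changes were 0.75, 0.89 and 1.01. Within slides Hbegf differed from control by 0.62 to 0.81 at the low dose and 0.80 to 0.90 at the medium dose on 2 slides each, and by 0.88 to 1.20 at the high dose on 3 slides. Its low and medium dose calls were lost without slide 1 (0.69 and 0.97, limma adjusted p = 0.294 and 0.147) and with median centring (0.61 and 1.02, limma adjusted p = 0.370 and 0.0593).

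**Figure D2:**
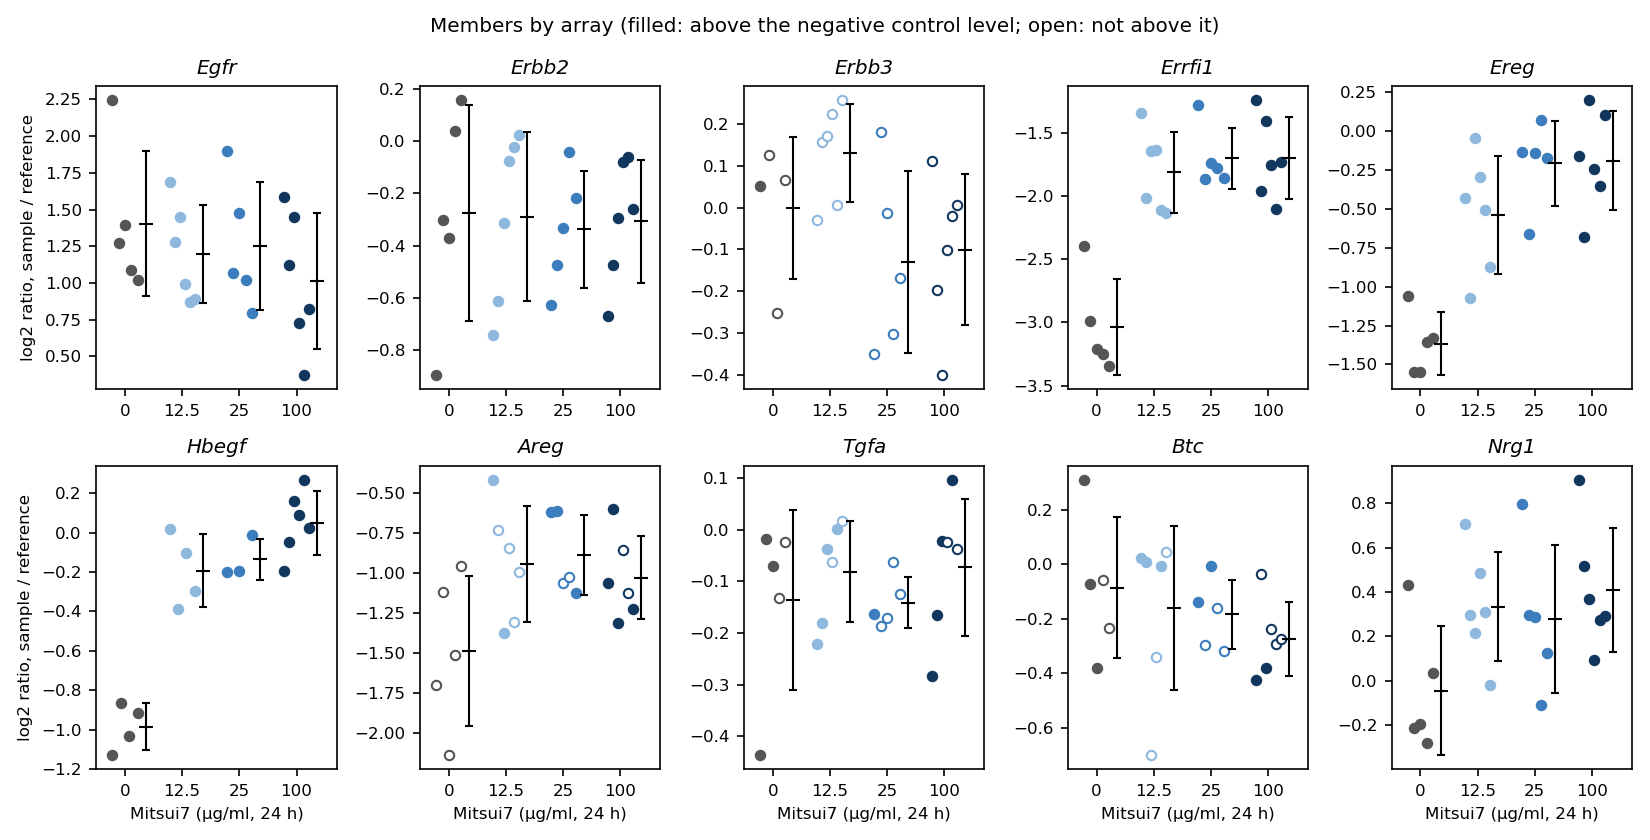
Log2 ratio of sample over reference pool (y axis) on each array for the members, by dose in µg/ml (x axis). Points stand for arrays, filled where the probe was detected, and the bars give the mean ± SD of each group. The exposed arrays of Errfi1, from -2.14 to -1.24, all lie above its control arrays, and those of Egfr and Erbb2 overlap theirs.

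Areg encodes amphiregulin, a ligand of Egfr. Its probe was dim: it was detected on 0 of 5 control, 2 of 6 low dose, 3 of 5 medium dose and 4 of 6 high dose arrays. The log2 ratio was -1.70, -1.12, -2.14, -1.51 and -0.96 on the control arrays. The low dose arrays ran from -1.37 through a median of -0.92 to -0.42, the medium dose arrays gave -0.62, -0.61, -1.06, -1.03 and -1.12, and the high dose arrays ran from -1.31 through -1.09 to -0.60. The exposed arrays overlapped the controls at each dose. The fitted change was 0.59 at the low dose, 0.60 at the medium dose and 0.50 at the high dose (SE 0.15, 0.16 and 0.15, limma adjusted p = 0.0338, 0.0252 and 0.0454). These values rest on control signals at the background, so their size is not resolved, and Areg was called at no dose. Areg was well above background on 1 medium dose and 1 high dose array and on 0 control and 0 low dose arrays. With most arrays of every group near background, no lower bound of its change is given. The difference within slides was between 0.48 and 1.08 on slides 1 to 3 and was -0.04, -0.17 and -0.27 on slide 4 at the low, medium and high doses. Without slide 4, or without its control array (control 5), the fitted high dose change was 0.69 or 0.68 and passed the thresholds for a call.

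Tgfa, transforming growth factor alpha, and Btc, betacellulin, are further ligands of Egfr. Tgfa was detected on 12 of 22 arrays and Btc on 10, and neither was well above background on any array. Tgfa lay between -0.44 and 0.10 over the 22 arrays, and Btc between -0.70 and 0.31. The changes of Tgfa were 0.03, 0.00 and 0.04 at the 3 doses, and those of Btc were -0.09, -0.10 and -0.20. In the RefSeq table Epgn, Ereg, Areg and Btc, which encode ligands of this family, follow each other on chromosome 5 with no other protein-coding gene between them. Of these, Ereg was the only gene called in any comparison.

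Nrg1 encodes neuregulin 1, a ligand of Erbb3 and Erbb4, and was detected on all 22 arrays. Its log2 ratio was 0.43, -0.21, -0.20, -0.28 and 0.04 on the control arrays and 0.80, 0.30, 0.29, -0.11 and 0.12 at the medium dose. The low dose arrays ran from -0.02 through a median of 0.30 to 0.71, and the high dose arrays from 0.09 through 0.33 to 0.91. The groups overlapped at every dose. After subtracting slide effects fitted together with the groups, 4 of 6, 3 of 5 and 6 of 6 exposed arrays lay above every control. That subtraction uses the fitted group changes, so it adds no separate test. The change was 0.39 (SE 0.14), 0.32 (SE 0.14) and 0.47 (SE 0.14, 1.38-fold), with limma adjusted p values of 0.154, 0.265 and 0.0409, so that the high dose passed the test of p and not that of size. Within slides Nrg1 was higher on 3 of 4 slides at the low dose and on 4 of 4 at the medium and high doses.

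Egfr, the receptor these ligands share, was detected on all 22 arrays. Its brightest probe, designed on the transcript NM_207655, read 2.25, 1.27, 1.39, 1.09 and 1.02 on the control arrays and 1.90, 1.07, 1.48, 1.02 and 0.80 at the medium dose. It ran from 0.87 through a median of 1.14 to 1.69 at the low dose and from 0.37 through 0.97 to 1.59 at the high dose, overlapping the controls. The changes were -0.11, -0.15 and -0.29 (SE 0.16, 0.17 and 0.16, limma adjusted p = 0.841, 0.778 and 0.390), and the 95% interval at the high dose ran from -0.64 to 0.05. The remaining probes of Egfr were designed on the transcript NM_007912. The probe A_55_P1956862 changed by -0.34, -0.48 and -0.63 (SE 0.12, 0.12 and 0.11, limma adjusted p = 0.126, 0.0187 and 0.00108), and was called at the high dose, where it was 1.55-fold lower. Its 4 measured control arrays gave -0.15, 0.25, 0.42 and 0.41, and its high dose arrays ran from -0.67 through a median of -0.23 to 0.05, so the groups overlapped. After subtracting slide effects fitted together with the groups, all 6 high dose arrays lay below every measured control. That subtraction uses the fitted group changes, so it adds no separate test. Within slides the difference was negative on all 3 slides that measured it at each dose, from -0.64 to -0.42 at the high dose. That call was lost in 7 of the alternative settings, among them keeping all spots (-0.57), leaving out the slide term (-0.50) and leaving out control 2 (-0.56). The probe A_55_P1956863 changed by -0.45, -0.27 and -0.44 (limma adjusted p = 0.101, 0.407 and 0.0550) and was called at no dose. The probes of Egfr thus disagreed in size, and whether the transcripts differ was not tested.

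Erbb2, the partner receptor that binds no ligand of its own, was detected on all 22 arrays, with log2 ratios from -0.90 to 0.16. Its changes were -0.07, -0.06 and -0.08 (SE 0.10 each, limma adjusted p = 0.848, 0.872 and 0.795), and the 95% interval at the high dose ran from -0.30 to 0.13. Erbb3, which binds neuregulins, was detected on 1 of the 21 arrays that measured it, with changes of 0.14, -0.12 and -0.09.

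**Figure D3:**
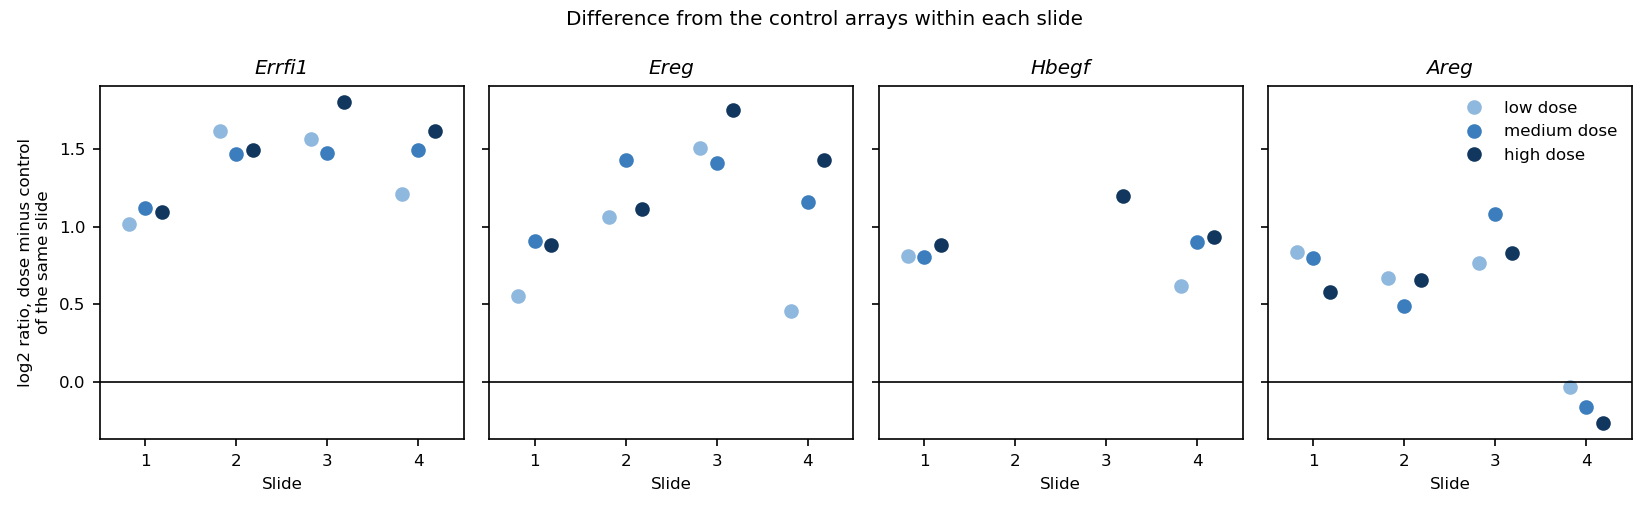
Difference in log2 ratio between each exposed group and the control group of the same slide (y axis), by slide (x axis), for Errfi1, Ereg, Hbegf and Areg; colours mark the dose. Errfi1, Ereg and Hbegf stay above 0 on each slide that measured them, and Areg falls to between -0.27 and -0.04 on slide 4.

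The doses were also set against each other. No member was called between any pair of doses or along the slope per doubling of dose, where 0.485% of 14216 detected genes were called between high and low, 0% between high and medium, 0% between medium and low, and 0.735% of 14284 along the slope. By limma, 3 of the 10 members had an unadjusted p under 0.05 between high and low, 0 between high and medium and 1 between medium and low, and every alternative run also gave 0 calls of members. Errfi1 was 0.12 higher at the high than at the low dose, with a 95% interval from -0.20 to 0.43. For Ereg the difference was 0.35 (95% interval 0.01 to 0.68, limma adjusted p = 0.573), and for Hbegf it was 0.23 (95% interval 0.01 to 0.45, limma adjusted p = 0.576). The order of these 3 genes over the doses was therefore not resolved beyond the spread between arrays.

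Genes were ranked by how closely their log2 ratios ran with those of the 3 called members, among 11077 detected genes. Slide effects fitted together with the groups were subtracted first. Ereg ran with Lrrfip1 (Pearson's r 0.97, Spearman's rho 0.94), Nup62 and Heatr1 (r 0.96 each) over 22 arrays. Errfi1 ran with Sphk1 and Timm10 (r 0.97 each) over 22 arrays, and Hbegf with Ccn2 and Tgif1 (r 0.98 each) over 17 arrays. With the group means removed, r was between 0.77 and 0.90 for these 7 pairs. The arrays share groups, slides and the reference pool, so these values describe the arrays and carry no test.

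A list of 63 further genes of the pathway was read at the same thresholds. At the low, medium and high doses 8, 9 and 11 were called higher and 0, 1 and 3 lower, of 58, 56 and 59 detected. Among all detected genes 2.3%, 4.27% and 5.52% were called higher, and 5.31%, 8.96% and 12% in either direction. The median change was 0.04, 0.10 and 0.02. The genes called higher lay mostly at the end of the pathway. The list was chosen with earlier results of these data known, so its counts are a description and no test. Of the 19 targets and feedback genes of ERK, 18 were detected, and 7, 8 and 10 of them were called higher and 0, 1 and 1 lower, with median changes of 0.37, 0.51 and 0.67. Fos, Fosl1, Jun, Myc, Ier3, Dusp4 and Dusp6 were called higher at all 3 doses. For Fos the study reported RT-qPCR values that were lower at the low dose and higher at the medium and high doses. Its own array analysis listed a change of Fos at the high dose only. Within slides the difference of Fos ran from 0.10 to 1.53 at the medium dose. With median centring the calls of Dusp6 were lost at all 3 doses (limma adjusted p = 0.298, 0.0847 and 0.0665), as were those of Myc and Ier3 at the low dose (limma adjusted p = 0.123 and 0.281), and the low dose call of Ier3 was also lost without slide 1 or slide 3 (limma adjusted p = 0.0697 and 0.0774).

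Fosl1, a subunit of the transcription factor AP-1, ran from -2.56 through a median of -2.22 to -1.59 on the control arrays, and from -0.43 through -0.07 to 0.84 at the high dose. Its changes were 2.02, 1.89 and 2.23 (SE 0.31, 0.32 and 0.31), and every exposed array lay above every control array. Jun, its partner in AP-1, changed by 1.19, 1.45 and 1.58 (SE 0.12 each), and the transcription factor Myc was 1.93-fold, 2.82-fold and 2.74-fold higher, both with no overlap between exposed and control arrays. Dusp4, a phosphatase that inactivates ERK in the nucleus, changed by 0.87, 0.98 and 1.22 (SE 0.14 each), with 5 of 6, 5 of 5 and 6 of 6 exposed arrays above every control. Ccnd1, which encodes cyclin D1, was the only called gene of this group that was lower, by limma at the medium dose (-0.69, adjusted p = 0.0314) and the high dose (-0.62, adjusted p = 0.0318). The call of Ccnd1 held in 25 of 41 settings at the medium dose and 26 of 41 at the high dose, and was lost among others with no slide term and without any of control 2, 3, 4 or 5, where its change lay between -0.75 and -0.50. Many of these genes also answer to other kinases, and which signal reached them was not measured.

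**Figure D4:**
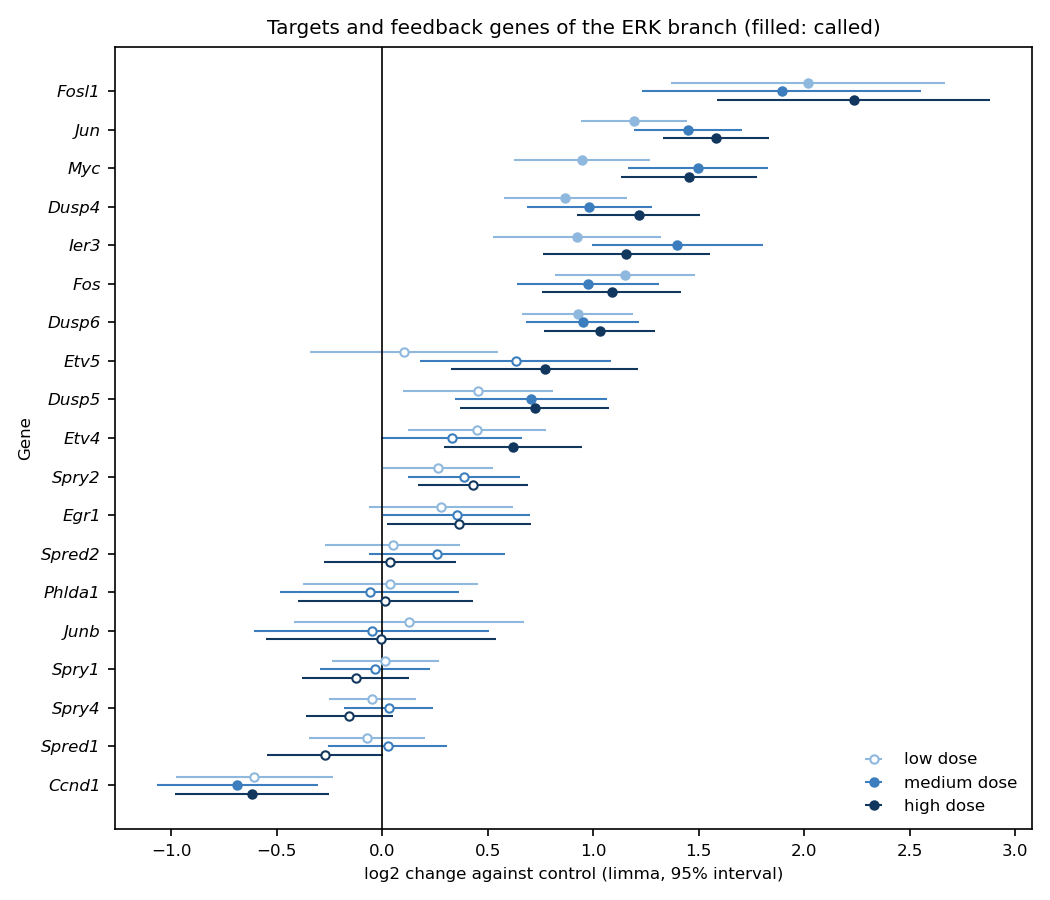
Change in log2 ratio against control (x axis) at each dose for the targets and feedback genes of ERK, with lines for the 95% confidence interval of the limma fit and filled points for calls. Fosl1 lies furthest right, between 1.89 and 2.23, and Ccnd1 lies to the left of 0.

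Between ligand and ERK the groups of genes were small, and their counts stand beside the 5.31%, 8.96% and 12% of all detected genes called at the 3 doses. None of the 6 genes of ligand shedding, all detected, was called at any dose. Adam17, the main protease that releases Areg, Ereg and Hbegf, changed by 0.04, -0.09 and -0.17 (limma adjusted p = 0.945, 0.865 and 0.635), and Adam10, which releases Btc, by -0.36, -0.44 and -0.56 (limma adjusted p = 0.0794, 0.0187 and 0.00156), short of 1.5-fold at each dose. Of the 6 other receptors and ligands of the family (Erbb4, Egf, Epgn, Nrg2, Nrg3 and Nrg4), 2, 1 and 3 were detected and 0 called. Among 11 receptor inhibitors and trafficking genes, Lrig1, which promotes loss of the receptor, was called higher at the low dose (0.77, limma adjusted p = 0.000195), with 0.49 at the medium and 0.47 at the high dose, and Socs5, a suppressor of receptor signalling, was called lower at the high dose (-0.74). Among 21 signal transduction genes, the RAS exchange factor Sos2 was called higher at the medium and high doses (0.66 and 0.69), and the transcription factor Stat3 lower at the high dose (-0.68). Median centring ended the calls of Sos2 (limma adjusted p = 0.318 and 0.251), Stat3 (limma adjusted p = 0.117) and Lrig1 (limma adjusted p = 0.197), and leaving out the slide term ended those of Socs5 (limma adjusted p = 0.0966) and Lrig1 (limma adjusted p = 0.0889). Sos2 was also lost at both doses without slide 4 (0.56 and 0.58), at the medium dose without control 5 (0.58) or medium dose 1 (0.57), and at the high dose in the authors' value table (0.57).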

How the data were processed

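Total RNA of 22 samples (200 ng each) was measured on Agilent 2-colour arrays scanned with Feature Extraction 10.7.3.1, per the file headers. The deposited scanner files hold spot intensities and log10 ratios of Cy5 over Cy3, the deposited value table holds the authors' normalized log2 ratios, and the deposited detection, outlier and annotation columns hold other flags and names. Median intensities were loess-normalized within each array without background subtraction, with marked spots missing, and repeated spots were joined by their median (R 4.3.3, limma 3.58.1). The fit of group and slide was adjusted by Benjamini-Hochberg over 55681 probes. A probe was detected above the 5% trimmed mean plus 3 SD of 308 negative control spots. A gene was read from its brightest probe. The members and lists were chosen with earlier results of these data known. All members were named, with, from each group of the pathway list, up to 4 called genes of largest change at the high dose, and the 3 genes most like each member called at all doses, of which some are not reported here. Ccnd1, Fos, Ier3, Dusp6, Adam17 and Adam10 were named after their values were seen. Cell type markers were described by list. Same-numbered arrays of exposed and control cells correlated at 0.215 to 0.856, and most such pairs shared a slide. The pairs of low dose 5 and of high dose 5 with control 5 lay on different slides and correlated at 0.351 and 0.546. Arrays 1 and 2 of every group lay on slide 1. The slide term therefore holds this pairing only in part, and the rest stays in the spread of the fit. The fit was tested on simulated data with slide shifts and with arrays otherwise drawn independently. That test could not show what a correlation of same-numbered arrays beyond the slide does to the p-values. The alternatives covered normalization, background, filters, thresholds, blocks and omitted arrays or slides.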

Additional observations from a re-analysis of the deposited data

Results flagged for a closer look

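In 4 of the 47 groups of arrays examined for the members' probes, 1 array stood apart from the others of its group by Dixon's criterion, which chance alone gives in about 1 of 20 groups. These were Tgfa in control 1 (-0.44, a gap of 0.725 of the group's range), Errfi1 in medium dose 1 (-1.28, 0.781), and the Egfr probe A_55_P1956863 in low dose 1 (-0.19, 0.728) and medium dose 1 (-0.013, 0.849). These values came from 3 arrays, each numbered 1 in its group and all on slide 1. Slide 1 also held the arrays numbered 2, of which none was flagged. Errfi1 in medium dose 1 was the highest array of its group, and the remaining medium dose arrays lay between -1.86 and -1.74, above every control.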

How the results depend on the processing

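Errfi1, Ereg and Hbegf kept their direction at every dose in all settings run. Median centring gave 0 called members at the low and 1 at the medium dose, 4 and 6 pathway genes higher at the low and high doses, 1 and 0 lower at the low and medium doses, and 4 and 6 ERK genes higher at the low and high doses. At a 2-fold threshold 1 member was called at the low dose, with 3, 4 and 7 pathway genes higher, 0 lower at the medium and high doses, and 3 and 4 ERK genes higher at the low and medium doses. With no fold threshold 5 members were called at the high dose and 1, 4 and 7 pathway genes lower. The authors' value table and the replicate block in place of slide each gave 1 and 2 pathway genes lower at the low and medium doses, and all spots kept, array weights and adjustment over detected probes gave 1 at the low dose. Reading any probe of a gene gave 2 lower at the medium dose. The scanner's log ratio, no slide term, the ordinary linear model, the 2 groups alone and omission of slide 1, 2, 3 or 4 gave 0 lower at the medium dose, and no slide term gave 1 at the high dose. Under the replicate block 3 members were called at each dose.

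Leaving out 1 array at a time gave 3, 3 and 3 to 4 members called, 8, 8 to 10 and 10 to 11 pathway genes higher, 0 to 1, 0 to 1 and 2 to 4 lower, 7, 7 to 9 and 9 to 10 ERK genes higher, 0 members between doses or along the slope, and 5 to 6 members detected in control cells. The fourth member was Areg at the high dose, called without control replicate 5 and without slide 4. Judged by the scanner's own background flag, a check chosen after seeing the data, 6 members were detected in control cells. The cause of these differences was not tested. Areg, Tgfa, Btc and Erbb3 lay near the background, which limits what their values can show.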
